A study of Mus musculus with 8 samples.

Results

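Peaks of N6-methyladenosine (m6A) that were made of 2 or more exon blocks and lay in coding sequence were examined in mouse embryonic stem cells (ESCs). A peak belonged to this set of junction-spanning coding peaks when its peak-list entry held at least 2 blocks and its middle base lay in coding sequence more than 200 nt before the stop codon, on the same strand, in the GENCODE M21 transcript with the longest coding sequence of its gene. The set held 3731 of 18895 peaks of cells given DMSO and 2028 of 13001 peaks of cells given doxycycline (Dox), or 5759 of 31896 in all. No measured level was used to choose them.

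The peaks came from MeRIP-seq, in which fragments of poly(A) RNA that bind an m6A antibody (IP) are sequenced beside RNA taken before the pull-down (input). The E14 line was treated for 24 h with DMSO or with Dox, and each treatment had 2 IP and 2 input libraries, which makes 4 groups. According to the study, all groups, those given DMSO included, carried a Dux transgene that Dox switches on and a tdTomato reporter driven by the Mervl promoter, so both treatments share every genetic change and differ in the agent. The replicates had been combined into 1 list per treatment, so no value below has a replicate error, no p-value between treatments is given, and the intervals are 95% intervals of counting error only.

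m6A is placed on nuclear pre-mRNA by the METTL3 and METTL14 methyltransferase, mostly at the motif DRACH, of which GGAC is the form most often found. Exon junction complexes are left on the RNA just upstream of spliced junctions and keep the methyltransferase from nearby sequence, so that m6A is known for long internal exons and for the region of the stop codon. Fragments of m6A RNA are longer than many coding exons, and a peak can therefore reach over a junction into the next exon.

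Whether each block gap was a spliced junction was checked against the annotation, because the gaps come from the gene model of the peak caller. DMSO members held 5415 gaps and Dox members 2766. Of these, 77.2% and 75.8% were introns of the chosen transcript, and 84.3% and 83.8% were introns of some annotated transcript. The remaining 15.7% and 16.2% matched no annotated intron. No gap of 551 DMSO members (14.8%) and 319 Dox members (15.7%) was an annotated intron, and the name junction-spanning rests on the gene model alone for them. In these, a median of 12 nt lay on the shorter side of a gap in both lists, against 42 nt (DMSO) and 38 nt (Dox) in the others. Of the member bases, 2.44% (DMSO) and 2.73% (Dox) lay outside the chosen transcript, and 98.9% and 86.8% of those lay in exons of other transcripts of the gene. Members that lay on the chosen transcript as 1 unbroken stretch numbered 2185 and 1215, and results on exon lengths, motif windows and crossed junctions used those.

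GGAC can be made by splicing itself, when its letters lie on both sides of a junction. The following stretches show this at the best-scoring such members without a near-identical copy. Each holds 20 nt of the upstream exon and 20 nt of the downstream exon, 5′ to 3′ in mm10, and the capitals mark the GGAC that crosses the junction. The intron coordinates give the last base of one exon and the first base of the next. Atp5b, which encodes the beta subunit of mitochondrial ATP synthase, was crossed at chr10:128085212-128085442 (+). Calr, the calcium-binding chaperone calreticulin, was crossed at chr8:84844491-84844574 (-). Dab2ip, a GTPase-activating protein of Ras, was crossed at chr2:35708912-35709818 (+). Mybbp1a, a nucleolar MYB-binding protein, was crossed at chr11:72448963-72449043 (+), and Gab1, a docking protein of receptor signalling, at chr8:80774673-80774934 (-). In the Dox list, the cell-cycle transcription factor Mybl2 was crossed at chr2:163064500-163068156 (+), the helicase Ddx27 at chr2:167019686-167019880 (+) and the ribosome assembly factor Pes1 at chr11:3977200-3977626 (+).
Atp5b, DMSO: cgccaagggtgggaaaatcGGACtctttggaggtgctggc
Calr, DMSO: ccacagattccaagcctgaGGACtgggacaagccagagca
Dab2ip, DMSO: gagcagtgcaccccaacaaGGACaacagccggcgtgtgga
Mybbp1a, DMSO: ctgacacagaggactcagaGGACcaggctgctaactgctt
Gab1, DMSO: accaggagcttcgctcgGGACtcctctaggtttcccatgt
Mybl2, Dox: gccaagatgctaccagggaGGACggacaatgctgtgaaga
Ddx27, Dox: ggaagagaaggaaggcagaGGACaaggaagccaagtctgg
Pes1, Dox: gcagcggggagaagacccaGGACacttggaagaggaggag

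Such motifs were rare. A GGAC lay across 62 of 3074 junctions crossed by DMSO members lying as 1 stretch (2.02%, interval 1.58 to 2.58) and across 38 of 1611 crossed by such Dox members (2.36%, 1.72 to 3.22). Over all 28884 coding junctions of the members' transcripts it was 2.29%, which lies inside both intervals. In 51 of the 62 DMSO cases and 33 of the 38 Dox cases, only the first G lay in the upstream exon, as in all stretches above but that of Gab1, which has GGA upstream.

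Whole members are shown next to give the motif with its surroundings, with GGAC in capitals. The Atp5b member at chr10:128085196-128085549 (+) had 125 nt in 2 blocks, a score of 29.0 and its junction after base 17. The score was taken as the authors' −log10 p-value of IP over input, of at least 10 in every peak. It was the best-scoring DMSO member that lay wholly in coding sequence, held GGAC, had at most 300 nt and had no near-identical copy. The Fn1 member of the Dox list, at chr1:71606707-71607917 (-), had 175 nt in 2 blocks, a score of 26.7 and its junction after base 14. Fn1 encodes fibronectin and is shown because it was among the genes with most members in both lists. The Calr member at chr8:84844102-84844652 (-), with 300 nt in 3 blocks, is added for its 4 GGAC, of which 1 crosses a junction.
Atp5b, DMSO: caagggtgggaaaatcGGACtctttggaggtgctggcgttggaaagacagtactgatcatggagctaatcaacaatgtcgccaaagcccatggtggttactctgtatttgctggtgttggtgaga
Fn1, Dox: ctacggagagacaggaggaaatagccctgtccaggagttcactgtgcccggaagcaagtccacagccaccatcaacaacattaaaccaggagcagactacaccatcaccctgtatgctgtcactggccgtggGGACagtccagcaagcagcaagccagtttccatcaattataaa
Calr, DMSO: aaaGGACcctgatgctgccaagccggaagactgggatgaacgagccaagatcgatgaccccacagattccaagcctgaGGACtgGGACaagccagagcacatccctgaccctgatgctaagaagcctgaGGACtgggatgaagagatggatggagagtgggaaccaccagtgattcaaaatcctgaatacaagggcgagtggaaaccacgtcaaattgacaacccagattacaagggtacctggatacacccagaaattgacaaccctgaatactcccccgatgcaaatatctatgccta

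Most members crossed a single gap. In the DMSO list 2594 members had 2 blocks (69.5%), 788 had 3 blocks and 349 had 4 or more, with at most 10. In the Dox list 1513 had 2 blocks (74.6%), 371 had 3 and 144 had 4 or more, with at most 8. The member length was a median of 175 nt in both lists (quartiles 100 and 300 nt), against 100 nt (DMSO) and 125 nt (Dox) for coding peaks of 1 block. Length rose with the number of blocks, from a median of 125 nt (DMSO) and 150 nt (Dox) with 2 blocks to 400 nt in both lists with 4 or more. Between the first and last base, members spanned a median of 1747 nt (DMSO) and 1652 nt (Dox) of the genome, most of it gaps between blocks.

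The members with the most blocks covered many exons. In the DMSO list, Baz2b, a bromodomain protein gene, held a peak of 700 nt in 10 blocks (score 13.0), and Dnmt1, which encodes the maintenance DNA methyltransferase, held 575 nt in 9 blocks (score 11.7). Lig1, the DNA ligase of replication, held 675 nt in 8 blocks (score 34.6). In the Dox list, peaks of 8 blocks lay in Dnmt1 (525 nt, score 19.1), in the translation initiation factor gene Eif3a (1825 nt, score 14.0) and in the nonmuscle myosin gene Myh9 (1100 nt, score 13.2). All 6 shared a gap with a peak of the other list.

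The part of a member beyond the junction was often small. A median of 34 nt (DMSO) and 31 nt (Dox) lay on the shorter side of a gap, with fewer than 25 nt at 43.6% and 45.4% of gaps and fewer than 5 nt at 8.50% and 8.64%. In 1623 DMSO members (43.5%) and 942 Dox members (46.4%), no gap had 25 nt on each side, which is the step of the peak caller. Members of 2 blocks that lay on the transcript as 1 stretch (1559 DMSO, 934 Dox) had a median of 77.3% and 77.6% of their length in the larger block. Where the blocks differed in length (1550 and 932), the larger lay upstream of the junction in 50.1% (47.6 to 52.6) and 48.1% (44.9 to 51.3), so no side was more frequent beyond counting error.

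The larger block lay in the longer exon more often than not. This held in 1032 of 1545 DMSO members (66.8%, 64.4 to 69.1) and 671 of 929 Dox members (72.2%, 69.3 to 75). The exon of the larger block had a median of 178 nt (DMSO) and 200 nt (Dox), and the exon of the smaller block 143.5 nt and 144.5 nt. Both were short beside the exon of a 1-block coding peak, with medians of 1027 nt and 1154 nt. An exon over 400 nt held the larger block in 23.4% and 29.4%, the smaller block in 7.23% and 7.51%, and a 1-block coding peak in 71.3% and 77.2%. A longer exon offers more room to the larger block, and this was not corrected for.

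Members made up 34.7% of coding peaks in the DMSO list (33.8 to 35.6) and 28.1% in the Dox list (27.1 to 29.1). For every coding peak, all windows of its length with their middle base in the same coding stretch were enumerated, and 48.3% of DMSO windows and 45.5% of Dox windows crossed a junction of the transcript. Called peaks thus crossed a junction less often than windows did, by -13.6 points (-14.5 to -12.7) and -17.4 points (-18.4 to -16.3). The gap was seen in every length class. In peaks of up to 50 nt it was small when every block gap was counted, with 16.6% against 18.5% (DMSO) and 13.2% against 17.0% (Dox). In peaks over 400 nt it was 44.1% against 68.3% and 37.5% against 65.5%. Counting only gaps that are introns of the transcript, the differences were -18.4 and -21.7 points. Such an intron was crossed by 8.71% (DMSO) and 7.07% (Dox) of all coding peaks of up to 50 nt. The difference from windows was therefore not small there once other gaps were left out. Over 400 nt the shares with such an intron were 39.4% and 31.8%.

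**Figure D1:**
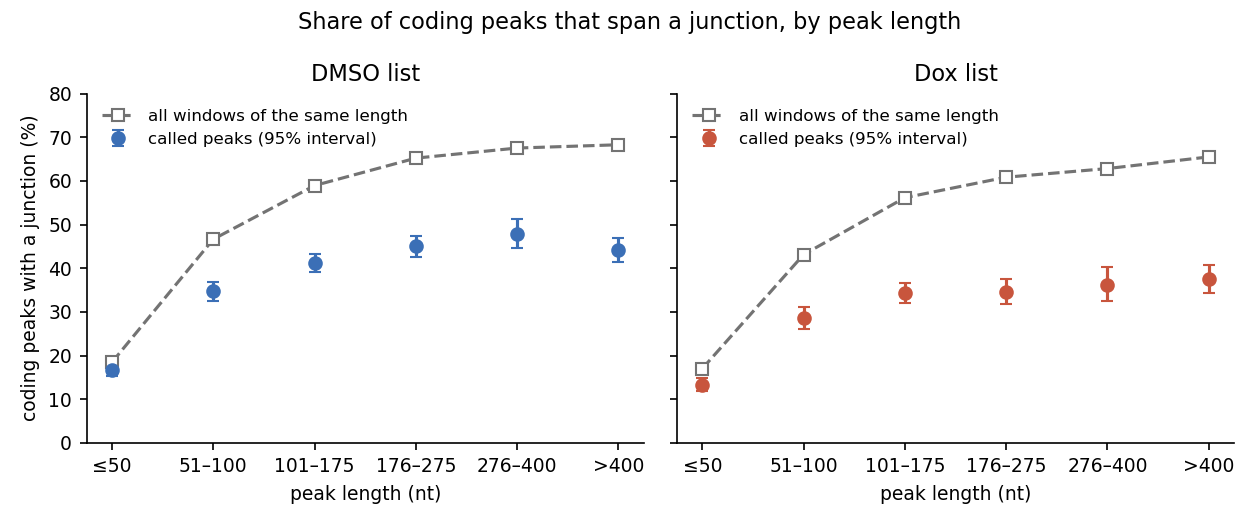
Share of coding peaks that span a junction (%, vertical axis) by peak length (nt, horizontal axis) in the DMSO and Dox lists. Filled points are called peaks with 95% Wilson intervals and open squares all windows of the same length in the same transcripts. Any block gap counts for called peaks, but only introns of the transcript count for windows. Called peaks lie below the windows in all 6 length classes of both lists, reaching 44.1% and 37.5% over 400 nt where windows reach 68.3% and 65.5%.

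Coverage near junctions was low in the transcripts of the members themselves. Over 2055 transcripts, peaks of the DMSO list covered 19.3% of coding bases less than 25 nt from a junction, 21.9% from 50 nt to below 100 nt, and 47.9% from there to below 200 nt. Coverage was highest, at 68.0%, from 200 nt to below 400 nt. The Dox values for these distances were 10.1%, 13.4%, 37.5% and 57%. Members made most of the coverage next to junctions, with 16.6% of bases (DMSO) and 8.35% (Dox) at less than 25 nt. They made a smaller part of it from 200 nt to below 400 nt, with 29.5% and 18.5%. This split follows largely from the choice of the set, because a member must cross a gap and each of these transcripts carries one. Bases within 100 nt of a junction were covered alike on both sides, at 19.8% upstream and 20.2% downstream (DMSO) and 11.1% and 11.2% (Dox). Bases far from a junction lie only in long exons, so distance and exon length cannot be told apart here.

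**Figure D2:**
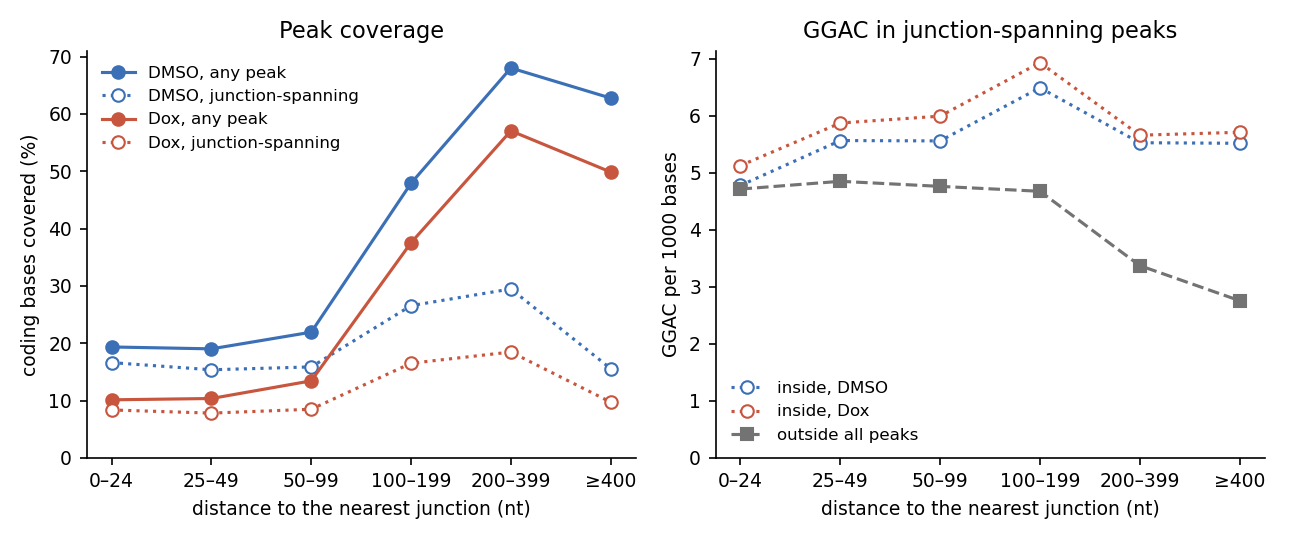
Left, coding bases covered by peaks (%) by distance to the nearest junction (nt) in the 2055 transcripts that carry a member, for any peak (filled) and for junction-spanning coding peaks (open). Right, GGAC per 1000 bases inside junction-spanning peaks of each list and outside all peaks. Coverage by any peak rises from 19.3% to 68.0% (DMSO) between bases less than 25 nt and bases 200 to below 400 nt away, while GGAC inside members starts near the outside level.

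GGAC was searched on the RNA strand only. It was held by 2120 of 3731 DMSO members (56.8%, 55.2 to 58.4) and 1187 of 2028 Dox members (58.5%, 56.4 to 60.7). These shares were above those of 1-block coding peaks (49.5% and 52.1%), but the members were longer. With peak length held alike, members held GGAC less often than 1-block peaks, by -5.89 points (-7.63 to -4.15) in the DMSO list and -5.88 points (-8.09 to -3.67) in the Dox list. In DMSO peaks of 51 to 100 nt the shares were 32.2% and 42.8%, and over 400 nt they were 95.5% and 95.4%. Among peaks with a score of 15 or more the difference was -0.310 points (-5.36 to 4.74) and -1.05 points (-7.72 to 5.63). The wider motif DRACH (D any base but C, R a purine, H any base but G) did not show this: its difference was -0.160 points (-1.09 to 0.767) and 0.638 points (-0.562 to 1.84). GTCC, the same letters read on the opposite strand, occurred in 39.6% and 42.2% of members.

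Members held GGAC about as often as junction-crossing windows of their length in the same transcripts. Among members lying as 1 stretch the share was 58.9% against 57.1% of such windows in the DMSO list, a difference of 1.82 points (-0.258 to 3.87), and 61.3% against 59.3% in the Dox list, 1.98 points (-0.787 to 4.68). For 1-block coding peaks and windows without a junction the differences were 8.25 points (7 to 9.50) and 8.72 points (7.29 to 10.2). The intervals of members and 1-block peaks do not overlap. Members overlapped by a peak of the other list gave 2.09 points (DMSO) and 2.23 points (Dox), with intervals that include 0. Members with a score of 15 or more gave 5.25 points (-0.755 to 10.7; 250 members) and 4.01 points (-4.48 to 11; 120 members), too few to tell them from 0 or from the 1-block values of 5.84 and 10.7 at that score. DRACH showed the same split from windows. Its differences over all members lying as 1 stretch were -0.116 points (-1.38 to 1.005, DMSO) and 0.784 points (-0.855 to 2.16, Dox). For 1-block peaks they were 4.71 points (3.72 to 5.66) and 5.385 points (4.285 to 6.43).

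**Figure D3:**
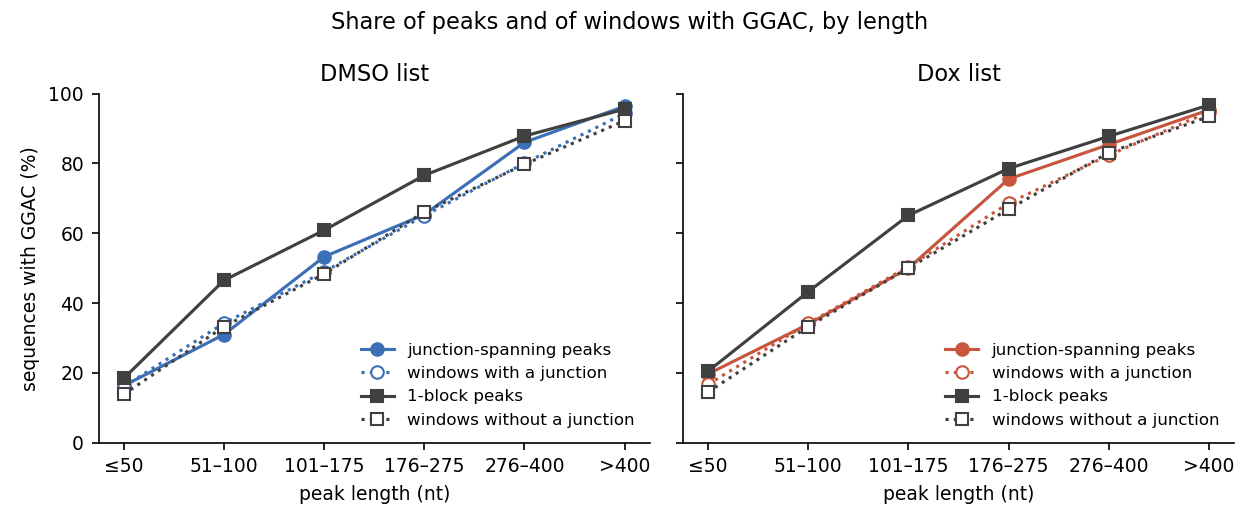
Share of sequences with GGAC (%) by length (nt) for junction-spanning coding peaks, 1-block coding peaks, and all windows of the same length with or without a junction, in both lists. Peaks are those lying on the transcript as 1 stretch. The 1-block peaks lie above their windows in all 6 length classes of both lists, and junction-spanning peaks lie above theirs in 5 of 6 classes (DMSO) and 4 of 6 (Dox).

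Over all members, GGAC was not concentrated at the junction. Less than 25 nt from the nearest junction, its density was 4.78 per 1000 bases in DMSO members and 4.72 outside all peaks, a ratio of 1.01 (0.951 to 1.08). The Dox ratio was 1.09 (1.00 to 1.18). Between 25 nt and 50 nt the ratios were 1.15 and 1.21, between 100 nt and 200 nt 1.39 and 1.48, and at 400 nt or more 2.00 and 2.07, where the density outside peaks had fallen to 2.76. Bases within 50 nt of a crossed junction held 0.893 times the GGAC density of bases further away in DMSO members (0.833 to 0.958) and 0.942 times in Dox members (0.860 to 1.03). With a score of 15 or more these ratios lay above 1, at 1.16 (0.961 to 1.41) and 1.09 (0.850 to 1.41), with intervals that include 1. With DRACH they were 1.01 (0.979 to 1.05) and 0.999 (0.955 to 1.05). In DMSO members of 2 blocks the larger block had 5.76 GGAC per 1000 bases and the smaller 5.10, a ratio of 1.13 (1.00 to 1.27), and in Dox members 5.96 and 5.55, a ratio of 1.07 (0.935 to 1.23). With each member cut into 3 equal parts, the density of the central part over that of the outer parts was 1.00 (0.933 to 1.08) and 1.05 (0.953 to 1.15).

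The score of members was higher than that of 1-block coding peaks, with medians of 12.3 against 11.4 (DMSO) and 12.1 against 11.3 (Dox), and the median was higher in each of the 6 length classes of both lists. The best-scoring members of the DMSO list lay in Npm1, the gene of the nucleolar chaperone nucleophosmin, with an infinite score for 275 nt in 4 blocks and 136.2 for 150 nt in 3 blocks. They were joined by Morf4l1, a chromodomain protein gene (255.1, 125 nt), Nono, which encodes a paraspeckle RNA-binding protein (155.4, 50 nt), and Snrnp70, the 70K protein of the U1 snRNP (118.9, 175 nt). The Dox list was led by the same Npm1 peak of 4 blocks (186.7), by Morf4l1 (141.9) and by Nono (126.4). They were followed by the 2C-stage genes Zscan4b (120.0, 1075 nt) and Zscan4f (112.5, 1175 nt), both with near-identical copies elsewhere.

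Gaps that are not annotated introns were frequent among the best-scoring members. Among the 100 best-scoring members, 42 of the DMSO list (32.8% to 51.8%) and 25 of the Dox list (17.6% to 34.3%) had no annotated intron, against 14.0% and 15.2% of the other members. Over all members the median scores were close, at 12.6 without an annotated intron and 12.2 with one (DMSO), and 12.6 and 12.1 (Dox). The Morf4l1 and Nono members have no annotated intron, while the Npm1 member of 4 blocks has 3 annotated gaps. The part of the gene model in these scores was not tested.

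The DMSO list had 1.84 times as many members as the Dox list (1.74 to 1.94), and 1.35 times as many 1-block coding peaks (1.30 to 1.40). The share of coding peaks that spanned a junction was accordingly 6.63 points higher in the DMSO list (5.25 to 8.00), and 6.65 points higher (5.31 to 7.98) with peak length held alike. With the DMSO list cut to the size of the Dox list by score the difference was 13.3 points, and the share of windows of the same length was then also higher for DMSO, at 56.1% against 45.5%. With a score of 15 or more the difference was 4.28 points (-0.433 to 9.01). The share was higher on 20 of 20 chromosomes, and the ratio of member numbers ran from 1.55 to 2.36 among them. Read depth, which sets how many and how long peaks are called, was not analysed here, and its part was not tested.

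Nearly all Dox members were found in the DMSO list, but not the reverse. A DMSO peak overlapped 1962 of 2028 Dox members (96.7%, 95.9 to 97.4), and a Dox peak overlapped 2446 of 3731 DMSO members (65.6%, 64.0 to 67.1). Overlap was more frequent than in 1-block coding peaks (91.4% and 49.5%). With length held alike the differences were 1.99 points in the Dox list (1.05 to 2.92) and 1.49 points in the DMSO list (-0.101 to 3.07). At the level of single gaps, 2593 of 5415 DMSO gaps (47.9%) and 2578 of 2766 Dox gaps (93.2%) were also crossed by a peak of the other list. With a score of 15 or more in both lists, overlap fell to 56.6% of Dox members and 28.9% of DMSO members, and shared gaps to 54.4% and 25.7%.

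The outcome of DMSO members in the Dox list moved with their size. Of all DMSO members, 1827 (49%) shared a gap with a Dox peak, 619 (16.6%) were overlapped without a shared gap, and 1285 (34.4%) had no Dox peak on them. A gap was shared by 37.8% of members of 2 blocks, 67.8% of 3 blocks and 89.7% of 4 or more. Members without a Dox peak were shorter (median 100 nt) and had lower scores (median 11.5) than those that shared a gap (250 nt and 13.1). GGAC was held by 35.7% of the former and 68.5% of the latter, but these differ in length. In members of 101 to 175 nt the shares were 48.4% (43.4 to 53.4) and 54.6% (49.7 to 59.5), and in members of up to 50 nt the order was turned, with 17.9% (14.4 to 21.9) and 8.97% (4.42 to 17.4).

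**Figure D4:**
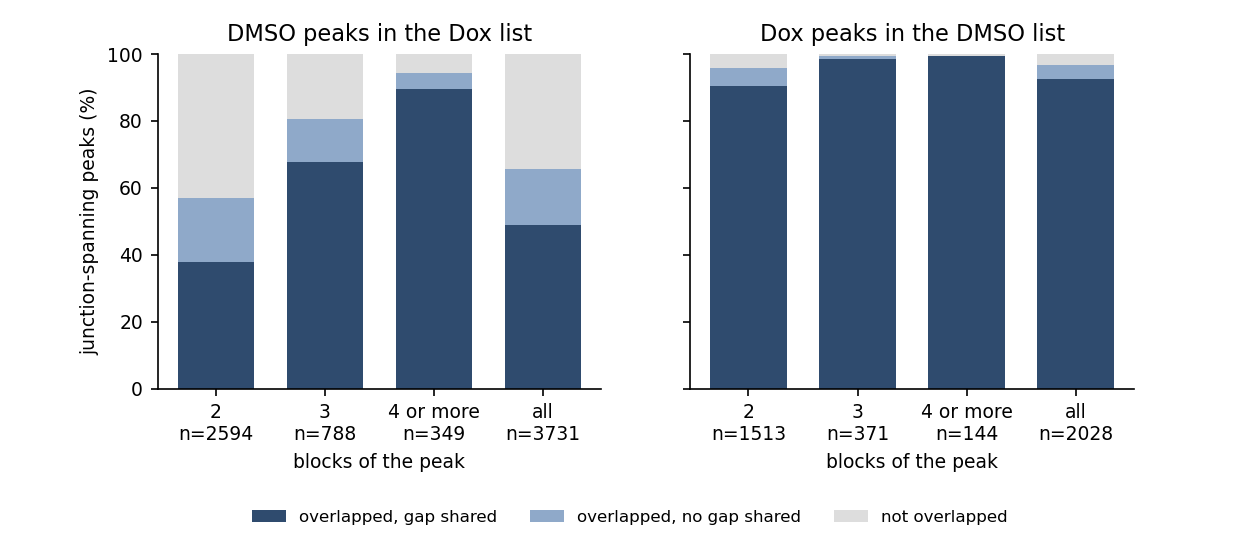
Share of junction-spanning coding peaks (%) that were overlapped by a peak of the other list with a shared gap, overlapped without one, or not overlapped, by number of blocks. DMSO members are shown on the left and Dox members on the right, with n below each bar. The shared part rises from 37.8% (2 blocks) to 89.7% (4 or more) for DMSO members and is at least 90.4% in each group of Dox members.

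Where the peak of the other list stopped short of the junction, it nearly always lay on the larger block. Of 501 DMSO members of 2 blocks that were overlapped without a shared gap, 464 (92.6%, 90 to 94.6) were overlapped in the larger block only, 18 in the smaller only and 19 in both. The block overlapped alone lay upstream in 237 and downstream in 245. Of 82 such Dox members, 72 were overlapped in the larger block only. The larger block offers more bases to overlap, which was not corrected for.

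In pairs of coding peaks that overlapped each other and no other peak, the site is held fixed. There were 4658 such pairs. Both peaks spanned a junction in 1473, neither in 2631, the DMSO peak alone in 501 and the Dox peak alone in 53. The DMSO peak was therefore the junction-spanning one in 90.4% of the 554 unequal pairs (exact binomial interval 87.7 to 92.7). In the 501 pairs the DMSO peak had a median of 175 nt and a score of 12.1, and its Dox partner 75 nt and 11.3. A median of 27 nt of the DMSO peak lay beyond the junction, and GGAC was held by 315 DMSO peaks and 197 of their partners. Only 7 of the 501 Dox peaks ended at the junction itself. In the 1473 pairs with a junction in both peaks, the gaps crossed were the same in 1097 (74.5%), more in the DMSO peak in 348 and more in the Dox peak in 17, and the DMSO peak was longer in 1018 and shorter in 90.

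Examples are the best-scoring unequal pairs. In Hnrnpa2b1, an RNA-binding protein gene, a DMSO peak of 100 nt (chr6:51465163-51465838, score 96.4) stood against a Dox peak of 50 nt in 1 block (score 17.7). In Atp5b, the 125 nt printed above stood against 100 nt of the downstream exon (score 10.5), which left out the GGAC at the junction. In Hnrnpd, another RNA-binding protein gene, 175 nt (score 28.4) stood against 50 nt (score 18). The gaps of Hnrnpa2b1 and Hnrnpd are not annotated introns. In the opposite direction, Gm2016 had 825 nt in the Dox list and 175 nt of 1 block in the DMSO list (scores 14.7 and 11.6), and the nucleolar protein gene Nol6 had 175 nt and 125 nt (14.5 and 13.0). Gm2016 has a near-identical copy.

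The best-scoring members without any peak in the other list lay, for DMSO, in the tubulin gene Tubb5 (25.6, 50 nt), in Supt16, a subunit of the histone chaperone FACT (23.8, 25 nt), and in the dynein heavy chain gene Dync1h1 (21.7, 100 nt). The gaps in Tubb5 and Supt16 were not annotated introns. For Dox they lay in the 2C-stage gene Zscan4d (24.4, 150 nt), in the transcription factor gene Atf2 (22.3, 525 nt in 4 blocks) and in the ribosomal protein gene Rpl36 (17.7, 25 nt).

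Members lay along the whole coding sequence. The middle base was at a median of 45.6% (DMSO) and 46.0% (Dox) of it, against 47.1% and 47.6% for 1-block peaks. The first 20% held 22.0% of DMSO members and 20.2% of 1-block peaks, while the Dox shares were 23.7% (21.9 to 25.6) and 19.3% (18.2 to 20.4). The last junction of the transcript was crossed by 194 DMSO members (5.20%) and 124 Dox members (6.11%). Sequence before the start codon was touched by 4.13% and 5.97%. Counted once per peak, the transcript of a member had a median of 17 (DMSO) and 16 (Dox) coding exons, and that of a 1-block coding peak 12 and 11.

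Another locus with a near-identical copy was found for 160 DMSO members (4.29%) and 113 Dox members (5.57%). In 151 and 104 of them an unbroken match covered enough of the member to count as a copy. Whether this match ran across the junction without the intron, as in a processed pseudogene, was not tested. The larger block alone can make up most of a member, so these counts do not show copies without the intron. Many reads may not be told apart between such copies, and the way in which the authors assigned them is not given in the sources used here. The search can miss copies of the shortest members. The 25 nt Sf3b4 member of the DMSO list had none called, while the 200 nt Dox member at the same gap had one.

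The members lay in 1974 genes (DMSO) and 1213 genes (Dox). These were 8.96% and 5.51% of the protein-coding genes annotated, and 51.1% and 41.4% of the genes that had any coding peak in the list. A total of 1132 genes had a member in both lists, 57.3% of the DMSO genes and 93.3% of the Dox genes. A single member was found in 57% and 63.2% of genes, and 4 or more in 10.5% and 6.76%.

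The genes with most members in the DMSO list were Dst (17 members, 103 coding exons), a cytoskeletal linker gene, the pericentriolar scaffold gene Pcnt (12 members, 42 exons), Macf1 (12 members, 98 exons), which links microtubules and actin, the ubiquitin ligase gene Huwe1 (11 members, 81 exons) and the fibronectin gene Fn1 (11 members, 46 exons). The Dox list held 7, 7, 5, 7 and 8 members in these. In the Dox list 6 genes had 8 members each. They were Fn1, Acin1, an auxiliary exon junction complex gene (19 exons), Supt6, a histone chaperone of transcription elongation (36 exons), Sf3b2, a subunit of the U2 snRNP (21 exons), the DNA repair enzyme gene Parp1 (23 exons) and Mtcl1, a microtubule crosslinking factor (14 exons). The DMSO list held 11, 10, 8, 6, 8 and 8 members in them.

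Genes that act at junctions carried members too, at shares within the range of the other gene lists given below. Of exon junction complex and nonsense-mediated decay genes with a coding peak, 11 of 16 had a DMSO member (68.8%, beside 51.1% of all genes) and 9 of 13 a Dox member (69.2%, beside 41.4%). All 9 were among the 11. The core component gene Rbm8a had a member of 125 nt with the same ends in both lists, with scores of 26.3 and 12.4. Of the decay factor genes, Upf3a had a member of 5 blocks in both lists, of 400 nt (score 13.7) and 375 nt (score 13.3), and Upf2 had 3 DMSO members and 1 Dox member.

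Among m6A writers, erasers and readers, 7 of 15 genes with a coding peak had a DMSO member (46.7%) and 5 of 14 a Dox member (35.7%), near the shares of all genes. Zc3h13, a subunit of the writer complex, had 7 DMSO and 5 Dox members. Virma, the largest subunit of that complex, had a member of 250 nt (DMSO) and of 175 nt (Dox) at the same gap. The reader gene Ythdc1 had 225 nt and 100 nt, and Igf2bp1 had 4 members and 2. The readers Ythdf1 and Ythdf2 (1100 nt each) and Igf2bp3 (75 nt) had members in the DMSO list alone, and the eraser gene Alkbh5 (125 nt) in the Dox list alone. The gaps in Ythdf2 and Alkbh5 were crossed in the other list too, by peaks that did not belong to the set. Of CCR4-NOT deadenylase genes with a coding peak, 4 of 6 had a DMSO member (66.7%, beside 51.1% of all genes). In the Dox list 4 of 7 had one (57.1%, beside 41.4%), and these genes are too few to tell from all genes. Cnot1, Cnot3, Cnot4 and Cnot10 had members in both lists, with 4 members of the scaffold gene Cnot1 in DMSO and 1 in Dox.

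Of the pluripotency genes with a coding peak, 10 of 12 had a DMSO member (83.3%, beside 51.1% of all genes) and 9 of 11 a Dox member (81.8%, beside 41.4%). The transcription factor genes Klf2, Klf4, Klf5, Sall4, Pou5f1, Esrrb, Tbx3, Tfcp2l1 and Zfp42 had members in both. The Klf4 member had 1050 nt and 1075 nt, and 3 blocks in both lists. Nanog had a member of 150 nt in the DMSO list alone (score 11.1), which a Dox peak overlapped without crossing the gap. Of the 2C genes, 2 of 3 with a coding peak had a DMSO member, too few to set beside all genes. A Dox member was found in 5 of 15 (33.3%, beside 41.4% of all genes), and these are also too few to tell from all genes. The Zscan4c member had 125 nt (score 10.7) in the DMSO list and 1225 nt (score 26.2) in the Dox list, and that of Zscan4f had 100 nt and 1175 nt (score 112.5). These genes are close copies of each other, so that a value cannot be assigned to 1 of them with certainty.

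The other lists lay on both sides of the share of all genes (51.1% DMSO, 41.4% Dox). Zfp zinc-finger genes had the smallest shares, with a member in 22 of 125 genes with a coding peak (17.6%, DMSO) and 10 of 79 (12.7%, Dox). SR and hnRNP splicing factor genes had one in 39 of 45 (86.7%) and 24 of 36 (66.7%), genes of the MCM complex and replication fork in 12 of 12 and 7 of 9, and proteasome genes in 12 of 16 and 11 of 12. Aminoacyl-tRNA synthetase genes had one in 12 of 16 and 10 of 13, chaperonin and heat shock genes in 13 of 16 and 10 of 15, translation factor genes in 24 of 33 and 20 of 27, and glycolysis genes in 8 of 11 and 5 of 6. Cytosolic ribosomal protein genes had one in 22 of 38 (57.9%) and 17 of 33 (51.5%), and DEAD and DEAH box helicase genes in 23 of 37 and 17 of 29. Cep and kinesin genes had one in 29 of 39 (74.4%) and 11 of 29 (37.9%). The part of exon number and of expression in these shares was not tested.

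**Figure D5:**
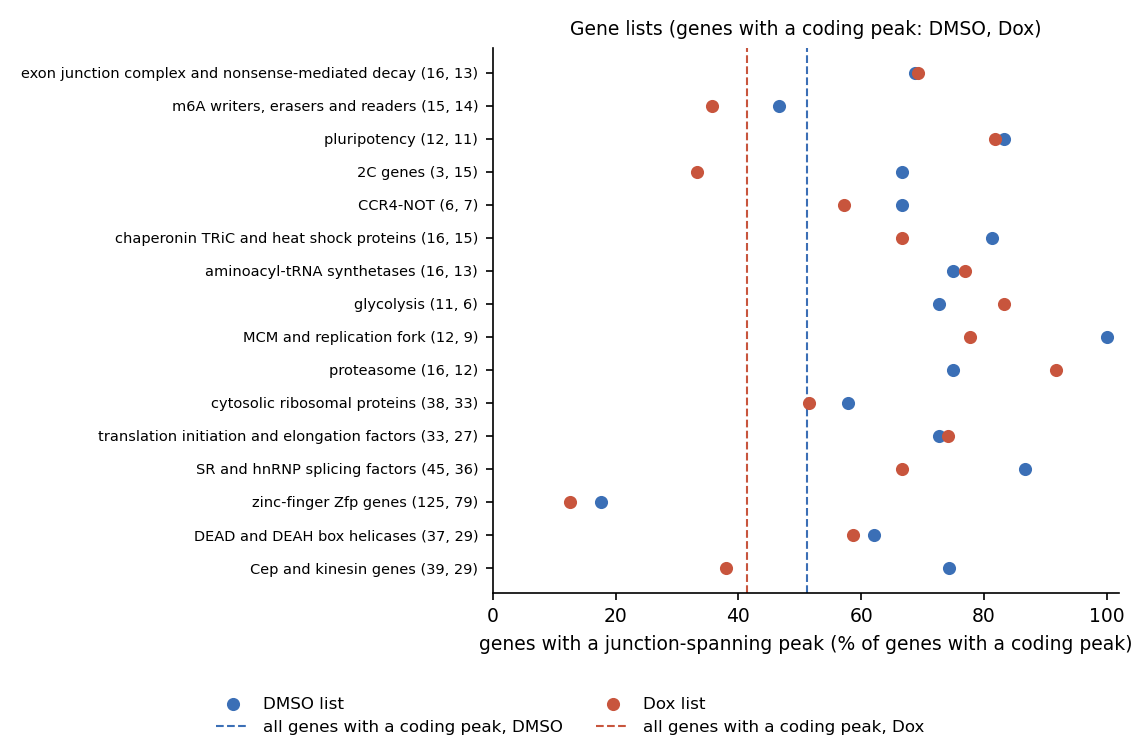
Genes with a junction-spanning coding peak as a share of the genes of each list that have a coding peak (%, horizontal axis), for 16 gene lists in both peak lists. Dashed lines mark the share over all genes, 51.1% (DMSO) and 41.4% (Dox), and the numbers in brackets are the genes with a coding peak. The Zfp genes lie far below both lines at 17.6% and 12.7%.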

How the data were processed

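MeRIP-seq libraries of mouse ESCs (2 IP and 2 input libraries per treatment) were the source. Per the submitters' processing notes, reads were filtered with fastp 0.19.4 and aligned with HISAT2 2.2.1 to mm10. The study's methods name exomePeak2 as the peak caller. Its version and settings, and how the replicates were combined, are not given in the sources used here. The deposited lists give, for each peak, its blocks and a score on a −log10 scale that was taken to be a p-value, and no list says whether it was adjusted. Read depth was not analysed here, although it affects how many and how long peaks are called. Blocks follow the gene model of the caller.

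Peaks were placed on GENCODE M21, using the gene that held most of the peak where several overlapped. Block sequences were read from GRCm38.p6. Windows were enumerated over every position, not drawn. Shares have Wilson intervals, and differences between groups of peaks Newcombe intervals. Differences from windows have the Wilson limits of the peak share less the window share, which was treated as free of error. Differences at equal length were averaged over 6 length classes weighted by the first group named, with normal intervals. GGAC and DRACH were searched with Python 3.11.15, NumPy 2.4.6, SciPy 1.17.1 and pysam 0.24.0. Near-identical copies had at least 90% of the peak at 98% identity (blastn 2.17.0). Steps were tested on simulated peaks cut from the same annotated transcripts. Of these, 100% of the 2953 with 1 candidate gene were placed and classed correctly. Gaps outside the annotation and overlapping genes were not covered by this check of the code.

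The members, gene lists and measures were chosen with earlier results of these data known. The peaks named were, per list, the 5 best-scoring members, the 3 with most blocks, the 3 best-scoring without overlap, the 3 best-scoring with a 1-block partner, the 5 genes with most members (with ties) and genes of the lists of fewer than 30 names, summarised where more than 6 had one. Some items that these rules name are not reported here.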

Additional observations from a re-analysis of the deposited data

How the results depend on the processing

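No paired analysis was possible because both replicates of a treatment were merged into 1 peak list, and none could be left out. Of 66 values under alternative settings for 15 results, 36 stayed within their limits. Keeping only peaks with a score of at least 15 moved most. It left 715 DMSO and 350 Dox members in 520 and 279 genes, a ratio of 2.04, and a difference in junction share of 4.28 points (-0.433 to 9.01), which no longer excludes 0. The difference from windows was then -9.62 points (DMSO) and -11 points (Dox), overlap 28.9% and 56.6%, and shared gaps 25.7% and 54.4%. The GGAC difference from 1-block peaks was -0.310 and -1.05 points, with intervals that include 0. The density ratio near over far from the junction was 1.16 and 1.09. These lie above 1, with intervals that include 1, where all members gave values below 1. With equal list sizes (the 13001 best-scoring DMSO peaks) the ratio was 1.54, the difference in junction share 13.3 points (windows 56.1% and 45.5%), overlap 72.4% and 90.5%, and shared gaps 52.4% and 89.1%. Asking for 25 nt on each side of a junction gave -15.6 points from windows (DMSO), 46.0% shared DMSO gaps and 770 Dox genes. Asking for 50% of the peak gave an overlap of 52.2% and 95.2%. DRACH in place of GGAC gave -0.160 points (DMSO) and, with the sign turned, 0.638 points (Dox), and a density ratio of 1.01 in DMSO members. Counting annotated introns only, which was added once the data were known, gave -18.4 and -21.7 points from windows and a DMSO overlap of 67.4%, with a ratio of 1.89. The causes of these changes were not tested. A single list per treatment, unknown depth and a score threshold of 10 limit all comparisons of DMSO with Dox, and gaps come from a gene model and not from spliced reads.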
